A study of Bos taurus with 20 samples.

Results

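Whole cattle embryos that had been vitrified were set against trophectoderm (TE) taken from vitrified embryos, all of them collected from the uterus at day 14. The comparison holds 9 of the 20 RNA sequencing samples of the study, chosen by their sample labels: 2 vitrified whole embryos and 7 vitrified TE samples. Vitrification is a freezing method in which cooling is so fast that water turns to a glass rather than to ice. Every sample on both sides of the comparison was vitrified, so it contrasts kinds of sample after vitrification and does not measure the effect of vitrification. A response to vitrification that differs between whole embryos and TE cannot be told apart here from a difference between the kinds of sample. The other samples, 6 fresh whole embryos and 5 fresh TE samples, entered the estimate of the spread between samples, and fresh samples are quoted where they place a value. The series' design names 9 vitrified and 12 fresh embryos, but no source used here ties a sample to an embryo, or tells how TE was isolated, when the embryos were vitrified, or their breed and sex. P-values therefore measure only the spread between these samples. With 2 whole embryos, each is given separately beside the range of the 7 TE samples. That choice was itself made because earlier results of these data had shown epiblast markers in whole embryo 2 and not in whole embryo 1, so the epiblast values below are a description.

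At this age the bovine conceptus is an ovoid to tubular sac about to elongate. Its outer wall is TE, the epithelium that later builds the placenta and that secretes interferon tau, the signal by which ruminant mothers recognise pregnancy. Under the TE lies the hypoblast, which lines the yolk sac and makes apolipoproteins and basement membrane. The epiblast is a small disc from which the body of the calf forms, and its cells keep the pluripotency factors POU5F1, NANOG and SOX2. A whole embryo thus carries the disc in addition to a large area of TE and hypoblast.

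Levels are given as RPKM, the number of reads per kilobase of gene for each M of library reads (M is 1000000), less the 0.01 that the deposited table adds. The kilobases are those of the whole gene, introns included. Whole embryo 1 had 8.43 M reads and whole embryo 2 had 8.96 M, against 7.73 to 9.55 M in the TE samples. Reads of the genes in the table made up 60.5% of the library of whole embryo 1 and 63.9% of that of whole embryo 2, above the 57.7 to 59.7% of all 7 TE samples. Across the 10599 genes tested, Spearman's rank correlation of whole embryo 1 with the TE samples ran from 0.943 (TE sample 4) to 0.979 (TE sample 2), and that of whole embryo 2 from 0.939 to 0.963, against 0.960 to 0.983 between TE samples. Whole embryo 1 correlated with TE samples 1, 2, 3 and 6 at 0.965 to 0.979, inside the range of all pairs of TE samples, and with samples 4, 5 and 7 below that range. Pairs among TE samples 1, 2, 3 and 6 themselves ran from 0.971 to 0.983. Whole embryo 2 was inside the range of all TE pairs with sample 2 only (0.963). The whole embryos correlated with each other at 0.963. In the library labelled whole embryo 1, the disc markers POU5F1, NANOG and SOX2 stayed within the TE range (values below). Calls are therefore given below with each whole embryo alone as well as with both. A fit with 1 whole embryo assumes that it varies like the samples of the other groups. Tests used limma, a linear model on log2(RPKM + 1) across all genes, and a gene passed at an adjusted p under 0.05. The genes named under Other observations, at the end, passed with each whole embryo alone. Of the genes named before that section as having passed, MCM6, CCNE1, TCEAL8, GOT1 and EPN1 also passed with each whole embryo alone. PURA and IFIT5 passed with whole embryo 1 but not whole embryo 2 alone, and none of the others with whole embryo 1 alone.

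The epiblast genes separated the whole embryos from each other. POU5F1, the transcription factor at the centre of the pluripotency network (UMD3.1 chromosome 23, 27769893 to 27774392, plus strand), stood at 0.316 RPKM in whole embryo 1 and at 20.6 RPKM in whole embryo 2, against 0.302 to 1.25 RPKM in TE (median 0.856). The value of whole embryo 2 came from 830 reads (95% exact Poisson interval 19.2 to 22.0 RPKM) and that of whole embryo 1 from 12 reads (0.164 to 0.553 RPKM). Whole embryo 2 was 24.9 times the TE mean for this gene and also above all 6 fresh whole embryos, which held 1.05 to 6.01 RPKM. NANOG, its homeodomain partner (chromosome 5, 101871073 to 101876226, plus strand), had no read in whole embryo 1, which allows up to 0.0691 RPKM (3 reads), and 4.22 RPKM in whole embryo 2, against 0 to 0.174 RPKM in TE. SOX2, which binds DNA together with POU5F1 (chromosome 1, 85933323 to 85934782, minus strand), had 0.0813 RPKM in whole embryo 1 and 2.98 RPKM in whole embryo 2, against 0 to 0.307 RPKM in TE. For all 3 factors whole embryo 1 lay inside the TE range and whole embryo 2 far above it. Intervals from reads cover counting error only.

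OTX2, a homeobox factor of the later epiblast (chromosome 10, 69458818 to 69462865, minus strand), followed the same order, with 0.205 RPKM in whole embryo 1 and 2.34 RPKM in whole embryo 2, against 0.0320 to 0.245 RPKM in TE. PRDM14, a regulator of pluripotency and germ cells, had no read in whole embryo 1 and 0.152 RPKM in whole embryo 2, against 0 to 0.0122 RPKM in TE. DNMT3B, the de novo DNA methyltransferase of the epiblast, had 0.235 RPKM in whole embryo 1 and 0.706 RPKM in whole embryo 2, against 0.265 to 0.462 RPKM in TE. Not every gene of the list behaved this way. SALL4, a zinc finger partner of POU5F1, had 1.28 RPKM in whole embryo 1 and 1.75 RPKM in whole embryo 2, against 1.73 to 2.93 RPKM in TE, and TDGF1, the Nodal co-receptor, had 5.25 RPKM and 2.99 RPKM within a TE range of 2.30 to 7.39 RPKM. LIN28A, an RNA-binding protein that blocks let-7 maturation, was inside the TE range in both, with 0.0948 RPKM in whole embryo 1 and 0.129 RPKM in whole embryo 2, against 0.0186 to 0.145 RPKM in TE.

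Of the 11 tested epiblast members, whole embryo 2 lay above all 7 TE samples in 7, where 41.9% of all genes tested did so, and whole embryo 1 in 0, where 29.1% did so. These counts restate the difference that led to the embryos being kept apart, so no test of these markers is given. In such bulk samples fewer cells of a type and less RNA per cell cannot be told apart.

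**Figure D1:**
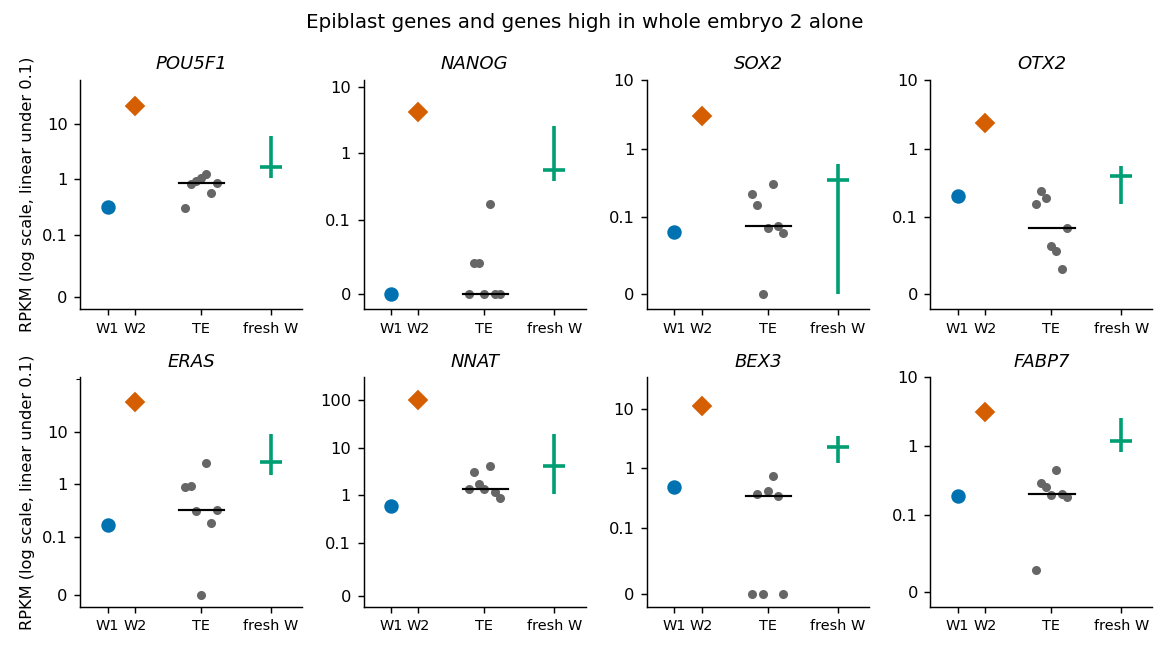
RPKM of 8 genes in whole embryo 1 (W1, blue circle), whole embryo 2 (W2, orange diamond), the 7 vitrified TE samples (grey points, bar at the median) and, for scale, the range and median of the 6 fresh whole embryos (green). The axis is logarithmic and turns linear under 0.1 RPKM; whole embryo 2 is above every TE sample in all 8 panels, and whole embryo 1 is inside the TE range in all of them except NNAT, where it is below.

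Other genes shared the pattern of whole embryo 2 above TE and whole embryo 1 within it. Across all genes 1989 did so (18.8%), against 838 with whole embryo 1 above TE and whole embryo 2 within it (7.91%). Among the widest gaps was that of ERAS. ERAS, a constitutively active Ras first known from mouse embryonic stem cells (chromosome X, 92016870 to 92017574, plus strand), had 0.168 RPKM in whole embryo 1 and 36.3 RPKM in whole embryo 2, against 0 to 2.55 RPKM in TE. BEX3, a small adaptor of the brain-expressed X-linked family, had 0.474 RPKM in whole embryo 1 and 11.1 RPKM in whole embryo 2, against 0 to 0.746 RPKM in TE. Its relative BEX4 had 0.0741 RPKM and 9.17 RPKM, against 0.0365 to 2.12 RPKM in TE. In each of these 3 genes the highest TE value was that of TE sample 5, which was also the highest TE sample for POU5F1, NANOG and SOX2.

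A second kind of gene was above TE in both whole embryos and highest in whole embryo 2. UCHL1, a deubiquitinase of neurons and germ cells, had 0.781 RPKM in whole embryo 1 and 5.25 RPKM in whole embryo 2, against 0.1398 to 0.584 RPKM in TE, and rose with a log2 difference of 1.36 ± 0.28 (SE; limma, adjusted p = 0.0048). TUBA1A, an alpha-tubulin of dividing and neural cells, had 13.8 RPKM and 44.6 RPKM, against 7.82 to 12.2 RPKM in TE (adjusted p = 0.026, limma). Metallothioneins, in contrast, were above TE in whole embryo 2 alone. MT1A, a metallothionein that binds zinc and copper, had no read in whole embryo 1 and 5.58 RPKM in whole embryo 2, against 0 to 0.131 RPKM in TE, with reads in 1 of the TE samples. MT1E had 0.295 RPKM and 3.001 RPKM, against 0.0195 to 0.394 RPKM in TE. MT2A, named after its values were seen, had 0 and 40.6 RPKM, against 0.108 to 2.55 RPKM in TE. The call of MT1E was lost without TE sample 4. Metallothionein genes are near copies of each other, so reads may be split among them.

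FABP7, the brain fatty acid-binding protein, had 0.188 RPKM in whole embryo 1 and 3.13 RPKM in whole embryo 2, against 0.0276 to 0.444 RPKM in TE. NNAT, an imprinted gene of neuroendocrine cells, had 0.596 RPKM, below all TE samples, and 97.5 RPKM, against 0.879 to 4.04 RPKM in TE. VIM, the intermediate filament of mesenchymal cells and the 1 matrix list member that passed as higher (adjusted p = 0.044, limma), had 0.0299 RPKM and 0.634 RPKM, against 0 to 0.125 RPKM in TE. With whole embryo 1 alone the log2 difference of FABP7 was -0.04 and that of MT1A -0.03, so the calls of these genes rest on whole embryo 2. That of FABP7 was also lost without any 1 of TE samples 1, 3, 4, 5, 6 and 7.

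Among BMP and FGF signalling genes, ID3 had one of the widest gaps between whole embryo 2 and TE. ID3, an inhibitor of DNA binding that BMP signals switch on, had 12.01 RPKM in whole embryo 1 and 144 RPKM in whole embryo 2, against 9.94 to 41.9 RPKM in TE. ID1, its relative, had 11.3 RPKM and 159 RPKM, against 12.4 to 32.7 RPKM in TE, and SPRY4, a feedback inhibitor of FGF signalling, had 0 and 0.559 RPKM, against 0.0101 to 0.0581 RPKM in TE. ID1 and SPRY4 were named after their values were seen. Neither ID gene passed the test with both whole embryos. Of the 26 tested members of the Nodal, BMP and FGF list, whole embryo 2 lay above TE in 15 (57.7%, against 41.9% of all genes) and whole embryo 1 in 6, where 29.1% of all genes did so. With limma 2 passed, both as higher (7.69%, below the 15.3% of all genes, and 1 to 3 with a TE sample left out): SMAD2, the effector of Nodal and activin, and DUSP6, a phosphatase that FGF signalling induces. SMAD2 had 0.295 RPKM and 0.309 RPKM, against 0.128 to 0.198 RPKM in TE, and DUSP6 had 4.06 RPKM and 6.16 RPKM, against 1.69 to 3.05 RPKM, so both whole embryos were above TE in these genes. The call of DUSP6 was lost without TE sample 4 or 7. With whole embryo 2 alone 10 members passed as higher (14.4% of all genes), and with whole embryo 1 alone 0 (1.09% of all genes).

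Of 8 mesoderm and primitive streak genes 3 were tested and 0 passed with limma, also at an unadjusted p of 0.05. The other 5 had too few reads to be tested, so the result does not cover them. With no filter on reads all 8 were tested, and 1 passed as higher and 0 as lower. BMP4, a ligand of TE and later mesoderm, had 0.731 RPKM in whole embryo 1 and 3.20 RPKM in whole embryo 2, against 0.786 to 2.59 RPKM in TE. SNAI1, which drives the epithelial to mesenchymal transition of gastrulation, had 1.74 RPKM and 3.30 RPKM within a TE range of 1.61 to 4.58 RPKM.

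Among hypoblast products the clearest difference was in whole embryo 2. APOA1, the main protein of high-density lipoprotein and a secretory product of the yolk sac (chromosome 15, 27932200 to 27934085, minus strand), had 687 RPKM in whole embryo 1 and 196 RPKM in whole embryo 2, against 585 to 1244 RPKM in TE (median 904). It fell by 1.24 on the log2 scale (SE 0.38; limma, adjusted p = 0.030), but with whole embryo 1 alone the adjusted p was 0.66, the highest of 20 alternative settings, and whole embryo 1 was inside the TE range. APOA2 had 18.8 RPKM and 40.2 RPKM, against 24.6 to 182 RPKM in TE, and APOE 60.4 RPKM and 52.8 RPKM, against 63.0 to 124 RPKM in TE. Neither passed the test. Regulators of the lineage overlapped with TE: SOX17 had 0.988 RPKM and 1.36 RPKM within 0.767 to 2.44 RPKM, and GATA6 had 0.0805 RPKM and 0.0984 RPKM within 0.0747 to 0.2001 RPKM. PDGFRA, the surface receptor that marks early hypoblast, had 0.412 RPKM and 0.147 RPKM, against 0.225 to 0.538 RPKM.

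Over the 17 tested hypoblast and yolk sac members, 3 passed as lower (3.59% of all genes) and 0 as higher, and the median log2 difference was -0.19, beside 0.03 over all genes. The 3 were LAMA1, COL4A2 and APOA1. With whole embryo 2 alone 4 passed as lower (1.81% of all genes) and with whole embryo 1 alone 0 (0.226% of all genes). The summed level of the list was 856 RPKM in whole embryo 1 and 321 RPKM in whole embryo 2, against 760 to 1632 RPKM in TE. APOA1 made up most of this sum in both whole embryos, so the sum says little of the other members. APOA1, APOA2, APOE and SOX17 had reads on both sides of the comparison, and the part of hypoblast markers in the result was not tested. Of 6 tested endocytic genes of the hypoblast 0 passed with limma, and 1 had an unadjusted p under 0.05. LRP2, the megalin receptor, had 2.98 RPKM and 2.04 RPKM, against 1.58 to 2.70 RPKM, and DAB2, its adaptor, 10.7 RPKM and 9.02 RPKM, against 6.73 to 12.2 RPKM.

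Several basement membrane genes lay below TE in both whole embryos. LAMA1, the laminin chain of embryonic basement membranes, had 0.469 RPKM in whole embryo 1 and 0.175 RPKM in whole embryo 2, against 0.528 to 0.946 RPKM in TE (adjusted p = 0.012, limma). LAMB1, its beta partner, had 1.46 RPKM and 0.829 RPKM, against 1.76 to 2.43 RPKM in TE (adjusted p = 0.014). LAMC1, the gamma chain, had 0.160 RPKM and 0.0876 RPKM, against 0.179 to 0.323 RPKM in TE (adjusted p = 0.010). All 3 chains of this laminin thus lay below every TE sample in both whole embryos, and lowest in whole embryo 2.

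LAMA5, the laminin chain of mature epithelia, COL4A2, a collagen IV chain, and COL18A1, the source of endostatin, also fell, with adjusted p from 0.0041 to 0.016 (limma). COL18A1 had 0.427 RPKM and 0.242 RPKM, against 0.513 to 1.41 RPKM in TE. FN1, fibronectin, had 10.3 RPKM in whole embryo 1, inside the TE range of 9.04 to 12.6 RPKM, and 5.498 RPKM in whole embryo 2, below it. Among 17 tested matrix genes 6 passed as lower (3.59% of all genes) and 7 lay below TE in both whole embryos, where 5.94% of all genes did so. The median log2 difference of the list was -0.16 with whole embryo 2 alone and -0.06 with whole embryo 1 alone. Over all genes these medians were 0.05 and 0.01. COL4A2 passed with neither whole embryo alone. Under each of the 3 other scalings tried the count of lower members was 6, and with 1 TE sample left out it was 6 to 8. With library weights or the 9 vitrified samples alone it was 1, where 20 and 81 of all 10599 genes passed as lower. VIM, above, passed under 3 of its 19 alternatives.

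Keratins of TE were high in all samples, and 18 of 21 tested TE markers did not pass. Of the others, 2 passed as lower, where 3.59% of all genes did so. Both whole embryos lay below every TE sample in 5 of the 21 (5.94% of all genes) and above in 2 (20.4% of all genes). KRT8, a keratin of simple epithelia, had 855 RPKM in whole embryo 1 and 1060 RPKM in whole embryo 2, against 689 to 976 RPKM in TE, and KRT18, its filament partner, 1245 RPKM and 1421 RPKM within 1078 to 1889 RPKM. ASCL2, a trophoblast basic helix-loop-helix factor, had 138 RPKM and 199 RPKM, against 92.0 to 183 RPKM in TE. TFAP2C, a factor that sets up the lineage, had 6.38 RPKM and 6.09 RPKM, against 6.54 to 8.99 RPKM. The summed level of the listed TE markers was 3116 RPKM and 3746 RPKM, within the 2758 to 3873 RPKM of TE.

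The 2 TE markers that passed as lower were GATA factors of trophoblast. GATA2, which activates trophoblast genes (chromosome 22, 60016985 to 60024586, plus strand), had 10.5 RPKM in whole embryo 1 and 10.1 RPKM in whole embryo 2, against 19.7 to 32.1 RPKM in TE (median 23.3). It fell by 1.19 on the log2 scale (SE 0.24; limma, adjusted p = 0.0043), with an adjusted p of 0.072 with whole embryo 1 alone, the highest over the alternative settings. GATA3, its partner, had 2.04 RPKM and 2.003 RPKM, against 2.499 to 3.502 RPKM in TE (adjusted p = 0.038, limma), a call lost with either whole embryo alone and without TE sample 7. MSX2, a homeobox target of BMP4, rose, with 6.74 RPKM and 8.38 RPKM, against 3.03 to 5.25 RPKM (adjusted p = 0.048, limma), a call that none of the 3 other scalings made and that was lost without TE sample 4, 5 or 7 or either whole embryo (adjusted p = 0.037 to 0.31 over its alternatives). HAND1 and DLX5, named after their values were seen, were split between the embryos: HAND1, a trophoblast and mesoderm factor, had 0.107 RPKM in whole embryo 1 and 4.34 RPKM in whole embryo 2, against 0.199 to 2.23 RPKM in TE. DLX5, a homeobox factor, had 1.36 RPKM and 4.50 RPKM, against 1.97 to 3.19 RPKM. Of 21 tested TE members 1 passed as higher and 2 as lower, with 0 in either direction with whole embryo 1 alone and up to 4 lower without TE sample 1, and whole embryo 1 lay below TE in 9 (18.6% of all genes).

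Secreted products of the conceptus showed few differences. IFNT, interferon tau, had 2.82 RPKM in whole embryo 1 and 3.69 RPKM in whole embryo 2, against 2.99 to 5.75 RPKM in TE, and reads of its near-identical copies may be split. PAG2, a pregnancy-associated glycoprotein of the aspartic protease family, had 5.85 RPKM and 2.42 RPKM, against 0.833 to 3.35 RPKM, with the same limit of a multigene family. PTGS2, the inducible prostaglandin synthase, had 24.7 RPKM and 31.0 RPKM within 18.9 to 38.1 RPKM. Of 11 tested members SSLP1 passed as higher and SPINT1, an inhibitor of membrane serine proteases, as lower, with adjusted p of 0.019 and 0.036 (limma). The call of SPINT1 was lost without TE sample 3, 4, 5 or 7 or either whole embryo.

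Transcripts of the mitochondrial genome formed the group with the most uniform difference. All 13 messenger RNAs lay below every TE sample in both whole embryos (5.94% of all genes), and 12 of 13 passed as lower (3.59% of all genes). ND1, a subunit of complex I (mitochondrial positions 3101 to 4056, plus strand), had 1053 RPKM in whole embryo 1 and 385 RPKM in whole embryo 2, against 1432 to 2341 RPKM in TE (median 1753). It fell by 1.48 on the log2 scale (SE 0.27; limma, adjusted p = 0.0027). MT-ATP6, the ATP synthase subunit that forms the proton channel, had 3448 RPKM and 1794 RPKM, against 4523 to 8015 RPKM in TE (adjusted p = 0.0058), and MT-CYB, the cytochrome b of complex III, 3138 RPKM and 1781 RPKM, against 3317 to 5551 RPKM (adjusted p = 0.026). COX1, the catalytic subunit of cytochrome c oxidase, had 5439 RPKM and 3933 RPKM, against 6163 to 9757 RPKM. In each of the 13, whole embryo 2 was the lower of the whole embryos. MT-ATP8 was the member that did not pass, with 384 RPKM and 314 RPKM, against 460 to 783 RPKM (adjusted p = 0.20).

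**Figure D2:**
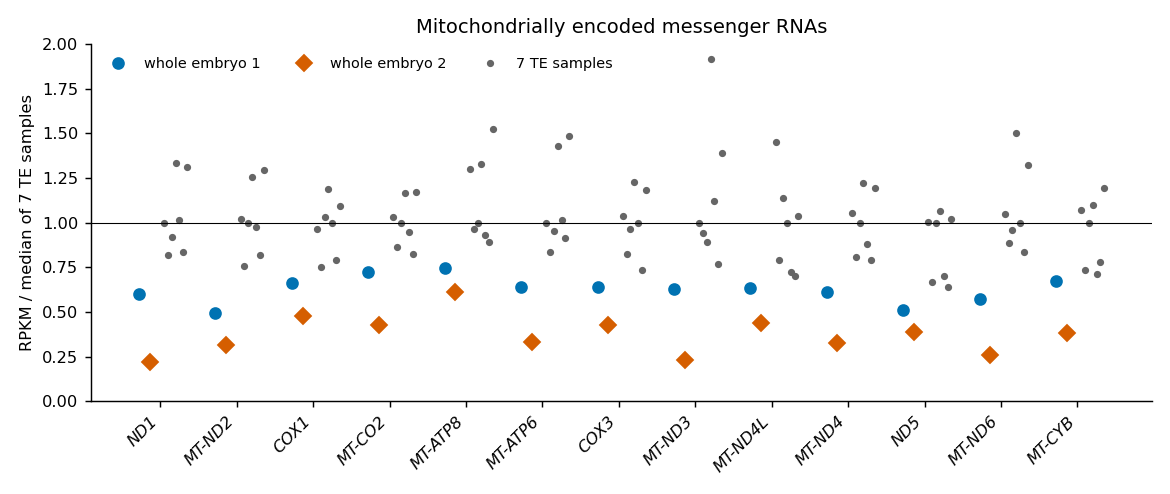
RPKM of the 13 mitochondrially encoded messenger RNAs, each divided by the median of the 7 vitrified TE samples (line at 1), for whole embryo 1 (blue circles), whole embryo 2 (orange diamonds) and each TE sample (grey points), with genes in genome order. Both whole embryos lie under all TE points in every gene, and whole embryo 2 under whole embryo 1.

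The median log2 difference of the 13 was -0.93 with both, -0.68 for whole embryo 1 and -1.27 for whole embryo 2. In whole embryo 1 alone 0 of 13 passed, and with whole embryo 2 alone 11. Of the reads of the genes in the table, the 13 genes took 5.03% in whole embryo 1 and 3.01% in whole embryo 2, against 6.29 to 9.87% in TE. The mitochondrial ribosomal RNAs moved with them, with 2.002% and 1.08% of the same reads, against 2.61 to 5.58% in TE. In the fresh whole embryos the messenger share of these reads was 3.28 to 5.12%, a range that includes whole embryo 1 and lies above whole embryo 2. In the 5 fresh TE samples it was 1.09 to 1.41%, below every whole embryo, fresh or vitrified. The order of TE and whole embryos was thus the reverse among fresh samples, and the reason was not tested. Neighbouring mitochondrial genes overlap and the strand used in counting is not given, so reads of MT-ATP8 and MT-ATP6, and of MT-ND6 and the opposite strand, cannot be told apart.

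Nuclear genes of oxidative phosphorylation that passed were all higher. Of 41 tested, 8 passed as higher (19.5%, near the 15.3% of all genes) and 0 as lower. Both whole embryos lay above every TE sample in 16 (39%, against 20.4% of all genes). In 5 both lay below every TE sample, where 5.94% of all genes did so. ATP5F1A, the alpha subunit of ATP synthase, had 112 RPKM in whole embryo 1 and 115 RPKM in whole embryo 2, against 64.5 to 84.6 RPKM in TE (log2 difference 0.64 ± 0.13 SE; limma, adjusted p = 0.0044). UQCRFS1, the iron-sulphur protein of complex III, had 69.3 RPKM and 83.7 RPKM, against 40.9 to 58.2 RPKM (adjusted p = 0.019), and NDUFS1, the largest core subunit of complex I, 1.87 RPKM and 1.703 RPKM, against 0.687 to 1.39 RPKM (adjusted p = 0.013). The median log2 difference of the list was 0.28 as deposited and 0.04 after quantile normalization, where 1 member passed. With whole embryo 1 alone 0 passed, with whole embryo 2 alone 5, and with a TE sample left out 6 to 10.

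**Figure D3:**
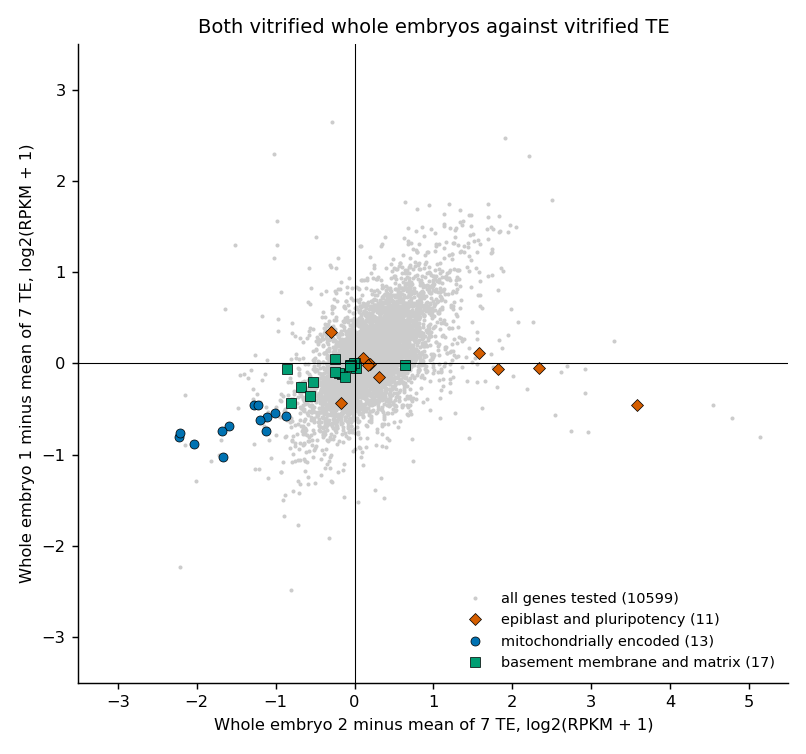
Difference from the mean of the 7 vitrified TE samples on the log2(RPKM + 1) scale, for whole embryo 2 (horizontal) and whole embryo 1 (vertical), for all 10599 genes tested (grey). Mitochondrial genes (blue) sit below 0 in both whole embryos, matrix genes (green) mostly so, and 4 epiblast genes (orange) lie far right of 0 and near or below 0 on the vertical axis.

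Of 39 tested genes of cell division, whole embryo 2 was above TE in 29 (74.4%, against 41.9% of all genes) and whole embryo 1 in 15 (29.1% of all genes), and 10 passed as higher (25.6%, against 15.3% of all genes) and 0 as lower. MCM6, a subunit of the replicative helicase, had 1.31 RPKM in whole embryo 1 and 1.57 RPKM in whole embryo 2, against 0.135 to 0.548 RPKM in TE (log2 difference 0.87 ± 0.12 SE; limma, adjusted p = 0.00070, and 0.00038 to 0.033 over 20 alternatives). CCNE1, cyclin E1, which starts DNA synthesis, had 0.921 RPKM and 1.07 RPKM, against 0.0922 to 0.406 RPKM (adjusted p = 0.0013, and 0.00075 to 0.040 over the alternatives). Each of these genes passed with either whole embryo alone. TYMS, which makes thymidylate, had 10.2 RPKM and 10.97 RPKM, against 4.23 to 7.91 RPKM, and CCNB1, the mitotic cyclin, 18.3 RPKM and 23.2 RPKM, against 10.5 to 15.9 RPKM (limma, adjusted p = 0.010 and 0.018). In whole embryo 1 alone 2 passed, with whole embryo 2 alone 9, under median-ratio scaling 3, and with a TE sample left out 7 to 13. Among 19 tested genes of apoptosis and p53, limma called 1 higher (5.26%, below the 15.3% of all genes) and 0 lower, and 0 with either whole embryo alone.

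Antioxidant genes showed both whole embryos above TE in 11 of 23 tested members (47.8%, against 20.4% of all genes), and 5 passed as higher (21.7%, against 15.3% of all genes). SOD2, the mitochondrial superoxide dismutase, had 4.11 RPKM in whole embryo 1 and 5.29 RPKM in whole embryo 2, against 0.749 to 2.75 RPKM in TE (log2 difference 1.17 ± 0.33 SE; limma, adjusted p = 0.021). GSR, glutathione reductase, had 0.850 RPKM and 0.732 RPKM, against 0.208 to 0.504 RPKM (adjusted p = 0.0055), and NFE2L2, the factor that switches on antioxidant genes, 2.29 RPKM and 2.16 RPKM, against 0.980 to 1.64 RPKM (adjusted p = 0.0091). PRDX3, the mitochondrial peroxiredoxin, and NQO1, a quinone reductase, were the others, with whole embryo 1 inside the TE range for NQO1. The calls of SOD2 and PRDX3 were lost with either whole embryo alone. With whole embryo 1 alone 0 passed, with whole embryo 2 alone 5, and under median-ratio scaling 1.

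Chaperones and genes of the endoplasmic reticulum counted 4 higher (13.3%, below the 15.3% of all genes) and 0 lower among 30 tested. HSPA8, the constitutive cytosolic chaperone, had 999 RPKM in whole embryo 1 and 994 RPKM in whole embryo 2, against 476 to 835 RPKM in TE (adjusted p = 0.013, limma). DNAJB9, a cochaperone of the unfolded protein response, had 32.3 RPKM and 28.6 RPKM, against 13.2 to 21.7 RPKM (adjusted p = 0.015). ASNS, asparagine synthetase, and PDIA3, a disulfide isomerase, also passed, PDIA3 not without TE sample 4, 5, 6 or 7. In whole embryo 1 alone 0 of the 30 passed and with whole embryo 2 alone 1. Under median-ratio scaling 0 passed and the median log2 difference turned to -0.02, beside 0.14 as deposited. Of 29 genes of glycolysis and hypoxia, 3 passed as higher (10.3%, below the 15.3% of all genes) and 1 as lower (3.59% of all genes). LDHA, lactate dehydrogenase, had 28.6 RPKM and 20.01 RPKM, against 8.29 to 17.0 RPKM, and HIF1A, the oxygen-sensing factor, 0.150 RPKM and 0.226 RPKM, against 0.0295 to 0.116 RPKM, while VEGFA, a hypoxia-induced growth factor, had 0.304 RPKM and 0.366 RPKM, against 0.417 to 0.744 RPKM. The higher calls of this list were 0 with whole embryo 1 alone, 5 with whole embryo 2 alone and 1 to 4 with a TE sample left out, with LDHA lost without TE sample 4, 5 or 7.

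ARF4, TMED2 and ACTR3 were among the genes farthest above TE in both whole embryos. ARF4, a Golgi GTPase, had 11.5 RPKM in whole embryo 1 and 12.3 RPKM in whole embryo 2, against 1.52 to 5.49 RPKM in TE (log2 difference 1.65 ± 0.43 SE; limma, adjusted p = 0.016). TMED2, a cargo receptor between the endoplasmic reticulum and the Golgi, had 6.12 RPKM and 6.77 RPKM, against 1.16 to 3.28 RPKM (adjusted p = 0.0079). ACTR3, a subunit of the Arp2/3 complex that nucleates branched actin, had 3.85 RPKM and 4.17 RPKM, against 0.624 to 1.94 RPKM (adjusted p = 0.0035). The whole embryos were close to each other in these genes, but the call of ARF4 was lost with either alone (adjusted p = 0.14 with whole embryo 1 and 0.059 with whole embryo 2, from 0.011 to 0.14 over its alternatives).

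TCEAL8, a member of the transcription elongation factor A-like family (chromosome X, 57476264 to 57477875, minus strand), had 14.1 RPKM and 15.9 RPKM, against 3.89 to 7.73 RPKM in TE, and passed under all 20 alternatives (adjusted p = 0.00092, limma, and 0.00038 to 0.034 over them). GOT1, the cytosolic aspartate aminotransferase, had 4.37 RPKM and 4.80 RPKM, against 1.53 to 2.48 RPKM, and likewise passed under all 20. TAF9, a subunit of general transcription complexes, had 56.3 RPKM and 50.6 RPKM, against 10.2 to 29.9 RPKM. ZFP42, also called REX1 and known in mouse as a marker of pluripotent cells, had 74.7 RPKM in whole embryo 1 and 71.4 RPKM in whole embryo 2, against 11.5 to 41.3 RPKM in TE, and did not pass (adjusted p = 0.057, limma). STMN1, which destabilises microtubules, had 32.8 RPKM and 57.1 RPKM, against 10.2 to 27.5 RPKM (adjusted p = 0.0095).

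**Figure D4:**
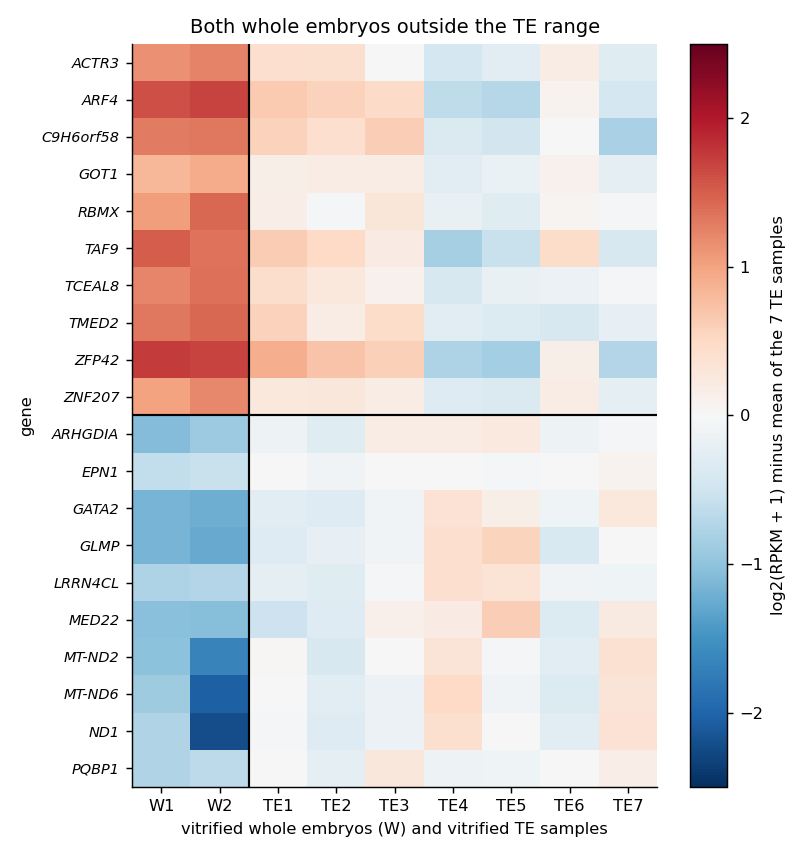
Log2(RPKM + 1) minus the mean of the 7 vitrified TE samples, for the 10 genes farthest above (top) and the 10 farthest below (bottom) the TE range in both whole embryos; columns are the vitrified whole embryos (W1, W2) and the TE samples. Values of the whole embryos are red in the upper block and blue in the lower, and TE samples 1, 2, 3 and 6 are the nearest to them in most of the upper genes.

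In the 2159 genes with both whole embryos above TE, the highest TE value was that of sample 2 in 690, sample 1 in 495, sample 6 in 426 and sample 3 in 381, and of sample 4, 5 or 7 in 45, 80 and 42. The TE samples thus differed among themselves along the same direction. For scale, single TE samples lay above the other 6 in 7.68 to 16.2% of genes and below them in 6.66 to 20.6%.

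Genes below TE in both whole embryos were fewer, 630 of 10599. Besides GATA2 and the mitochondrial genes, they included GLMP, a lysosomal membrane protein, with 7.16 RPKM in whole embryo 1 and 6.54 RPKM in whole embryo 2, against 12.9 to 25.8 RPKM in TE (log2 difference -1.21 ± 0.21 SE; limma, adjusted p = 0.0024). MED22, a subunit of the Mediator complex, had 1.35 RPKM and 1.32 RPKM, against 2.37 to 6.45 RPKM (adjusted p = 0.0060). EPN1, an adaptor of clathrin-mediated endocytosis, had 0.485 RPKM and 0.553 RPKM, against a narrow TE range of 1.16 to 1.42 RPKM, and passed under all 20 alternatives (adjusted p = 0.0013, limma, and 0.0011 to 0.049 over them). ARHGDIA, a GDP dissociation inhibitor of small GTPases, had 9.60 RPKM and 11.01 RPKM, against 17.2 to 25.5 RPKM (adjusted p = 0.037), a call that held in 8 of 20 alternatives and was lost with either whole embryo alone or without TE sample 3, 4, 5 or 7. PURA, a single-strand nucleic acid-binding protein, had 2.82 RPKM and 4.61 RPKM, against 6.02 to 14.1 RPKM (adjusted p = 0.0065).

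Genes of sterol and fatty acid synthesis passed in both directions. FASN, fatty acid synthase, had 2.72 RPKM in whole embryo 1 and 2.22 RPKM in whole embryo 2, against 3.89 to 7.21 RPKM in TE (log2 difference -0.89 ± 0.22 SE; limma, adjusted p = 0.011). FADS2, a desaturase, SREBF1, the factor that switches on fatty acid synthesis, and LSS, lanosterol synthase, also fell. FDFT1, squalene synthase, rose, with 2.32 RPKM and 2.57 RPKM, against 1.51 to 1.81 RPKM, as did STARD4, a cholesterol carrier, with 1.05 RPKM and 1.08 RPKM, against 0.160 to 0.466 RPKM. In all, 4 of 26 passed as lower (3.59% of all genes) and 3 as higher (11.5%, below the 15.3% of all genes), the last being SCD5, a desaturase with no read in whole embryo 1. With whole embryo 1 alone 0 of the 26 passed, FADS2 and SREBF1 passed with neither alone, and SREBF1 was lost without TE sample 4 or 5. Of 24 genes of lipid uptake and storage 1 passed in each direction, MOGAT1 as higher (15.3% of all genes) and APOA1 as lower (3.59% of all genes). Of 18 genes of prostaglandin and steroid synthesis the 1 call was POR, the electron donor of cytochrome P450 enzymes, as lower (adjusted p = 0.040, limma). The calls of MOGAT1 and POR were lost with either whole embryo alone and without some TE samples (adjusted p up to 0.069 and 0.062 without 1 TE sample).

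Transporters of amino acids and glucose counted 0 higher (15.3% of all genes) and 3 lower (3.59% of all genes) among 14. Whole embryo 2 lay below TE in 10 (11.5% of all genes) and whole embryo 1 in 6 (18.6% of all genes). SLC1A5, a glutamine carrier, had 1.74 RPKM in whole embryo 1 and 1.71 RPKM in whole embryo 2, against 2.21 to 4.27 RPKM in TE (adjusted p = 0.017, limma). SLC7A8 and SLC43A2, carriers of large neutral amino acids, were the others. SLC2A3, a high-affinity glucose transporter, had 48.6 RPKM in whole embryo 1, inside the TE range of 38.9 to 62.2 RPKM, and 19.9 RPKM in whole embryo 2 (adjusted p = 0.051). The 3 calls were absent with whole embryo 1 alone, and with whole embryo 2 alone 3 members passed.

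Some imprinted genes passed in each direction. IGF2, the paternally expressed growth factor, had 0.0574 RPKM in whole embryo 1 and 0.0660 RPKM in whole embryo 2, against 0.118 to 0.398 RPKM in TE (adjusted p = 0.0067, limma), and IGF2R, the maternally expressed receptor that clears it, 0.0687 RPKM and 0.0461 RPKM, against 0.0775 to 0.118 RPKM (adjusted p = 0.012). GNAS, a G protein subunit, had 1.71 RPKM and 3.07 RPKM, against 1.33 to 1.66 RPKM (adjusted p = 0.019), and SNRPN, a splicing protein, 3.64 RPKM and 3.497 RPKM, against 1.53 to 2.66 RPKM (adjusted p = 0.047). These made 2 higher (15.3% of all genes) and 2 lower (3.59% of all genes) of 10 tested. In whole embryo 1 alone 0 passed, and the call of SNRPN was lost without TE sample 3, 4, 5, 6 or 7 (adjusted p up to 0.076).

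Among chromatin genes 3 of 24 passed as higher (12.5%, below the 15.3% of all genes) and 2 as lower (3.59% of all genes). HDAC2, a histone deacetylase, had 0.752 RPKM in whole embryo 1 and 1.06 RPKM in whole embryo 2, against 0.391 to 0.573 RPKM in TE (adjusted p = 0.0024, limma). SETDB1, which methylates histone H3 at lysine 9, and HELLS, a remodeller needed for DNA methylation, were the other genes that rose, and CHD7, a remodeller, and EHMT1, a histone methyltransferase, fell. The call of HELLS was lost with any 1 TE sample but sample 6 left out, and that of EHMT1 without TE sample 4, 5 or 7. Among Wnt genes 3 of 19 passed in each direction (15.8%, near the 15.3% of all genes as higher and above the 3.59% as lower). The receptors FZD3 and FZD6 and the co-receptor LRP6 rose, with 0.0522 RPKM and 0.0654 RPKM for FZD6, against 0 to 0.0228 RPKM in TE, while the receptor FZD2 and the scaffold genes AXIN1 and AXIN2 fell, with 0.333 RPKM and 0.565 RPKM for FZD2, against 0.8 to 1.73 RPKM. With whole embryo 1 alone 0 genes of either list passed, and with whole embryo 2 alone 2 Wnt genes passed as higher and 0 as lower.

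Junction and keratin genes counted 2 higher (8.7%, below the 15.3% of all genes) and 0 lower of 23. DSC2, a desmosomal cadherin, had 0.689 RPKM in whole embryo 1 and 0.770 RPKM in whole embryo 2, against 0.173 to 0.512 RPKM in TE, and OCLN, occludin of tight junctions, 0.829 RPKM and 0.676 RPKM, against 0.245 to 0.604 RPKM (limma, adjusted p = 0.0041 and 0.025). Of 9 genes of axon, neural and mesenchymal adhesion 2 fell (3.59% of all genes), ITGA5, a fibronectin receptor chain, and PCDH1, a protocadherin. The call of OCLN was lost with either whole embryo alone. Interferon-stimulated genes counted 3 higher (15.3% of all genes) and 0 lower of 12. IRF1, a transcription factor of the interferon response, had 0.148 RPKM and 1.57 RPKM, against 0.0965 to 0.298 RPKM, so that its call rests on whole embryo 2, and it was lost without TE sample 1, 5, 6 or 7. IFIT5, an RNA sensor, had 0.584 RPKM and 0.370 RPKM, against 0.0504 to 0.265 RPKM. In whole embryo 1 alone 1 interferon-stimulated gene passed, and 0 of the junction or adhesion lists.

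Some differences belonged to whole embryo 1. Of 74 cytosolic ribosomal protein genes it lay below all TE samples in 46 (62.2%, against 18.6% of all genes), and whole embryo 2 in 5 (11.5% of all genes), yet 0 passed with limma in either direction with both whole embryos or with either alone, and 12 had an unadjusted p under 0.05 with both. Without TE sample 1 the calls were 1 higher and 5 lower, and without TE sample 2 they were 1 and 2. The summed level of these genes was 14770 RPKM in whole embryo 1 and 19260 RPKM in whole embryo 2, against 16100 to 23970 RPKM in TE. RPS2 had 662 RPKM and 989 RPKM, against 855 to 1209 RPKM, and RPS29 had 38.2 RPKM and 64.6 RPKM, against 63.0 to 109 RPKM. Pseudogene copies may share reads with these genes.

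PAGE4, a cancer-testis antigen gene of the X chromosome, had 61.2 RPKM in whole embryo 1 and 7.11 RPKM in whole embryo 2, against 0.928 to 22.8 RPKM in TE. PYY, the gut peptide YY, had 10.6 RPKM and 0.990 RPKM, against 0.814 to 4.81 RPKM. GNMT, glycine N-methyltransferase, had 6.69 RPKM and 2.97 RPKM, against 0.989 to 3.94 RPKM. JUNB, an immediate early transcription factor, was instead lower in whole embryo 1, with 9.01 RPKM, than in whole embryo 2, with 35.1 RPKM, and in TE, with 17.2 to 38.1 RPKM. None of these 4 passed with limma, with both whole embryos or with whole embryo 1 alone (adjusted p = 0.057 to 0.21 with it alone, and 0.036 to 0.93 over all alternatives of the 4). Whole embryo 1 lay above TE with whole embryo 2 below it in 83 genes (0.783%), and the reverse held in 298 (2.81%).

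Whole embryo 2 also stood below TE in genes where whole embryo 1 did not. PLXNB2, a semaphorin receptor, had 2.73 RPKM in whole embryo 1 and 0.992 RPKM in whole embryo 2, against 2.69 to 4.74 RPKM in TE (adjusted p = 0.0078, limma, and 0.28 with whole embryo 1 alone, the highest over its alternatives). CTSV, a lysosomal cathepsin, had 67.6 RPKM and 13.6 RPKM, against 23.2 to 70.2 RPKM, and PMP22, a tetraspan membrane protein, 2.74 RPKM and 0.489 RPKM, against 1.81 to 3.87 RPKM. In all 504 genes were below TE in whole embryo 2 with whole embryo 1 in the range (4.76%), and 1041 the other way round (9.82%).

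**Figure D5:**
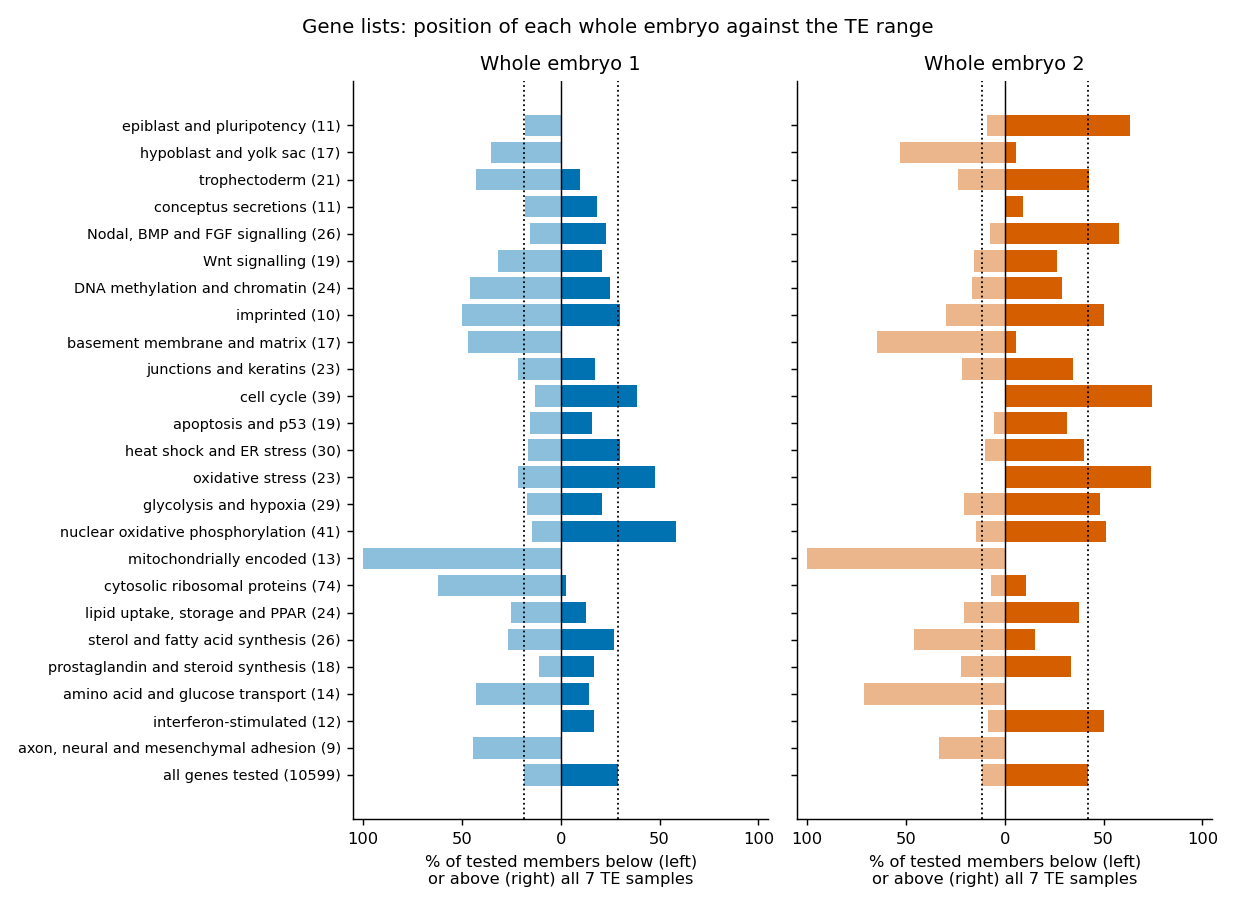
Share of the tested members of each gene list (number in brackets, lists with at least 9 tested members) that lie below (left, pale) or above (right, dark) all 7 vitrified TE samples, for whole embryo 1 (left panel) and whole embryo 2 (right panel). Dotted lines mark the shares over all genes tested, 29.1% above and 18.6% below for whole embryo 1, and 41.9% and 11.5% for whole embryo 2; mitochondrial genes reach 100% below in both panels, and ribosomal protein genes fall below in whole embryo 1 much more than in whole embryo 2.

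Markers of maternal tissue gave no difference in the first case and 1 in the second. Of 4 tested endometrial genes 0 passed with limma, also at an unadjusted p of 0.05, PIGR was at 0 in all 9 samples, and the summed level of the endometrial list was 2.58 RPKM in whole embryo 1 and 3.17 RPKM in whole embryo 2, against 2.25 to 6.08 RPKM in TE. Of 4 tested blood and immune genes CD14, a monocyte receptor for bacterial lipid, fell (a call lost with either whole embryo alone), with 0.124 RPKM and 0.155 RPKM, against 0.406 to 0.961 RPKM (adjusted p = 0.011, limma). The summed level of the blood list was 5.55 RPKM and 3.65 RPKM, against 4.41 to 7.23 RPKM.

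Over all 10599 genes tested, limma called 1617 higher (15.3%) and 381 lower (3.59%) in whole embryos, so that 80.9% of 1998 calls were higher. That split depended on the scaling: 72.7% of calls were higher when values were scaled to the reads of listed genes, 53.6% with median-ratio scaling and 55.7% after quantile normalization. Scaling to the reads of listed genes divides out the share of listed-gene reads, which was higher in both whole embryos than in TE. Why the split moved further under median-ratio scaling and quantile normalization was not tested. Of the 1617 higher genes, 981 were called with whole embryo 2 alone and 100 with whole embryo 1 alone, while whole embryo 1 was above the TE mean in 1578. Of the 381 lower genes, 150 were called with whole embryo 2 alone, 17 with whole embryo 1 alone, and whole embryo 1 was below the TE mean in all 381. Set alone against TE, whole embryo 1 gave 115 genes called higher (1.09%) and 24 lower (0.226%), and whole embryo 2 gave 1526 (14.4%) and 192 (1.81%).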

How the data were processed

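RNA from the 20 samples was sequenced, and the authors deposited 1 table of RPKM values with 0.01 added to each. No source names the unit, so it was read off the table: less 0.01 and times the genomic span, values fell on steps of 1 size per library, taken as 1 read (94.4 to 95.9% of those under 1000 reads lay within 0.1 of a whole number). Per the submitters' processing notes, FastQC, STAR 2.5.3a and Partek were used with UMD3.1. What each did, and the rule and strand of counting, are not given in those notes.

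Testing was limited to 10599 of 15542 genes, those reaching 10 recovered reads in 2 or more libraries. Tests used limma 3.58.1 in R 4.3.3 (lmFit, eBayes with trend and robust fitting) on log2(RPKM + 1), with a mean for each of 4 groups and the contrast vitrified whole embryo minus vitrified TE. P-values were adjusted by Benjamini-Hochberg over all genes tested, with a threshold of 0.05. Low genes have small differences on this scale. Because the values are normalized, no count model was run. The code was tested on simulated data. The samples, the 28 gene lists (697 symbols, 618 in the table) and the naming rule were chosen with earlier results of these data known. The rule named the genes called with the widest differences, those farthest outside the TE range in both whole embryos or in 1, up to 6 called members per list (or up to 4 of the highest where none was called), and a fixed set of lineage markers. APOA2, COX1, MT-ATP8, MT-CYB, NNAT, PDGFRA, PIGR, PTGS2, SCD5, TDGF1 and VIM were named outside it, after their values were seen. Some withheld genes are not reported here. Alternatives were 3 scalings, 2 pseudocounts, 2 filters, library weights, fewer groups, a replicate block, and each sample left out.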

Additional observations from a re-analysis of the deposited data

Results flagged for a closer look

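Among the 174 named genes with a spread in TE, 12 had 1 TE sample far from the other 6, by Dixon's gap ratio. Chance gives this in about 1 of 20 groups. TE sample 5 stood high in 3 genes: BEX4 at 2.12 RPKM, NANOG at 0.174 RPKM and MT1A at 0.131 RPKM, all genes that were above TE in whole embryo 2. MT1A had reads in no other TE sample, so its flag was fixed in advance. The naming rule favoured genes far above TE in whole embryo 2, so the overlap with that embryo is only a description. TE sample 4 stood high for SALL4 at 2.93 RPKM and MSX1 at 2.25 RPKM, and low for MOGAT1 at 0.253 RPKM. TE sample 7 stood high for LIN28A at 0.145 RPKM and low for RRM2 at 24.8 RPKM. TE sample 1 stood high for HIF1A at 0.116 RPKM, TE sample 3 for NQO1 at 0.122 RPKM and TE sample 6 for HELLS at 0.766 RPKM. TE sample 2 stood low for PMP22 at 1.81 RPKM. The differences between whole embryo 1 and whole embryo 2 could not be tested, with 1 sample of each.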

How the results depend on the processing

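The counts of higher and lower genes moved with most settings, from 1617 and 381. They were 155 and 20 with library weights, 705 and 81 with the 9 vitrified samples alone, 908 and 208 without fresh TE, 376 and 325 with median-ratio scaling, 972 and 365 per listed-gene read total, 275 and 219 after quantile normalization, and 1069 and 280 with a pseudocount of 0.1, which shifted the median of all genes to 0.12. Leaving out 1 sample gave 115 to 1824 higher and 24 to 505 lower genes, with both lowest counts without whole embryo 2. The causes were not tested. Leaving out samples changed the number of samples together with which samples were compared. Replicate numbers 1 and 2 occur in both groups, but nothing in the labels pairs them, and across genes the difference of the whole embryos correlated with that of TE samples 1 and 2 at r = 0.17. With a replicate block 676 genes were higher and 114 lower. With median-ratio scaling 1344 genes had both whole embryos above TE and 1238 both below, whole embryo 2 was above TE in 2747 and below in 2300, of which 1230 and 943 had whole embryo 1 in the TE range, and 173 genes had whole embryo 2 above and whole embryo 1 below. Without whole embryo 2 the log2 difference turned negative for SOX2 (-0.062), IRF1 (-0.061), NANOG (-0.050), FABP7 (-0.044), MT1A (-0.025) and PRDM14 (-0.005). Without whole embryo 1 these values were 1.819, 1.101, 2.335, 1.752, 2.693 and 0.199 in the same order. Over all settings and named genes, 2793 comparisons kept their side of the threshold, 648 lost the threshold, 34 gained it and these 6 were counted as turned. That count leaves out sign changes of some other genes. POU5F1, for 1, was below the TE mean in whole embryo 1 and above it with both whole embryos. Lower mitochondrial calls, 12 as deposited, were 12 with median-ratio and listed-read scaling, 6 after quantile normalization, 4 with library weights and 0 with whole embryo 1 alone. Depth limits genes of few reads: 3 reads on a gene of 10 kb are 0.0314 to 0.0388 RPKM in TE.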

Other observations

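Past the same threshold with both whole embryos, and with each whole embryo alone, were 65 higher and 7 lower genes, and under all 20 alternatives 33 and 2. The genes named here were chosen after their values were seen. BRCA1, a repair protein of homologous recombination, had 0.301 RPKM in whole embryo 1 and 0.352 RPKM in whole embryo 2, against 0.112 to 0.182 RPKM in TE. MIS12, a kinetochore protein, had 4.07 RPKM and 3.62 RPKM, against 1.26 to 2.65 RPKM, and CDC16, a subunit of the anaphase-promoting complex, 2.45 RPKM and 2.91 RPKM, against 1.27 to 1.69 RPKM. COPS4, of the COP9 signalosome, had 2.62 RPKM and 2.496 RPKM, against 0.768 to 1.41 RPKM. PLPP5, a lipid phosphatase, had 2.503 RPKM and 2.38 RPKM, against 0.310 to 1.26 RPKM.

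The 2 lower genes were EPN1 and REXO1, an RNA exonuclease homologue, which had 0.186 RPKM and 0.297 RPKM, against 0.518 to 1.22 RPKM in TE. The 7 lower genes with each embryo alone also included CNOT3, of the deadenylase complex, with 0.0689 RPKM and 0.1404 RPKM, against 0.340 to 0.413 RPKM, and ZBTB7A, a zinc finger repressor, with 0.1301 RPKM and 0.1399 RPKM, against 0.365 to 0.610 RPKM.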
